A study of Bostrychia moritziana with 3 samples.

Results

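The red alga Bostrychia moritziana alternates between free-living male and female gametophytes and a free-living tetrasporophyte. Of 36534 transcripts listed in at least 1 of the libraries of these stages, 175 stood at 10 RPKM or more in the tetrasporophyte and had no entry for the male or the female. RPKM is the number of reads per kilobase of a transcript and per 1000000 reads mapped. The members were chosen by their measured values: at least 10 RPKM in the tetrasporophyte and at most 0.3 RPKM, or no entry, in both the male and the female. Their level in the tetrasporophyte and their absence from the gametophytes are therefore given as a description, and no test was made of either.

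In red algae of this kind the fertilized female bears a further stage, the carposporophyte, which releases diploid carpospores that grow into tetrasporophytes. The tetrasporophyte forms sporangia in which meiosis takes place, and the haploid spores that leave them grow into the next gametophytes. A tetrasporophyte with ripe sporangia thus holds vegetative cells, cells in or near meiosis, and spores in one thallus.

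The series holds 1 library per life stage, all from strain 2746 kept free of other algae in one medium, temperature and light cycle, per the labels. Males were taken while spermatangia, which release the male gametes, were forming, and females while their carpogonial branches, which bear the egg cells, were developing. The tetrasporophytes had grown from released carpospores and were taken with mature sporangia. No treatment or introduced genetic change separates the stages. They do differ in sex and in ploidy, the gametophytes being haploid and the tetrasporophyte diploid. The number of thalli behind each library is not given in the sources used here. With 1 library per stage there is no replicate check for any difference, and no p-value is given. In whole thalli, a transcript made in fewer cells and one made at a lower level per cell cannot be told apart.

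The files pair the transcript numbers (ISGT and a number) with no gene name, sequence or function. The members can therefore be described by their level, by their level elsewhere and by their place in the numbering, and the label of the stage could not be checked against marker genes. Listed RPKM summed to 502958 for males, 455672 for females and 486668 for tetrasporophytes. Read totals are unknown. Steps in the low values give the tetrasporophyte library 0.973 times and the female library 1.12 times the reads of the male library, if the most common step is that of equal reads.

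None of the 175 members has a value in either gametophyte, because all 175 are missing from both listings. Their absence is read from how the listings were made. One set of 30448 transcripts is listed for both sexes, and the higher of the values for the sexes was never under 0.3 RPKM. Of these transcripts, 2434 were under 0.3 RPKM in the male, 886 of them at exactly 0, and each of the 2434 had a female value of 0.3 RPKM or more. The converse held for the 10186 under 0.3 RPKM in the female, whose lowest male value was 0.3 RPKM. A value in either sex thus sufficed for an entry, and a transcript with no entry was read as at most 0.3 RPKM in both. Whether a member stood at 0 or somewhat below 0.3 RPKM in a gametophyte is not recorded.

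The most abundant member, ISGT_3426, stood at 222.52 RPKM in the tetrasporophyte and had no entry for male or female. If a missing entry stands for at most 0.3 RPKM, ISGT_3426 was at least 742-fold higher in the tetrasporophyte than in a gametophyte. ISGT_39211 followed at 161.75 RPKM and ISGT_14304 at 160.10 RPKM, both without a gametophyte entry. ISGT_12050 stood at 150.81 RPKM and ISGT_39390 at 138.95 RPKM, also in the tetrasporophyte alone. These 5 were the members at 100 RPKM or more, and together they held 17.0% of the summed RPKM of all 175. In the tetrasporophyte library of 34695 entries, ISGT_3426 ranked 256th and ISGT_39390 ranked 449th. Members were 0 of the 100 most abundant tetrasporophyte transcripts, 5 of the top 500 and 10 of the top 1000. Among all 9806 at 10 RPKM or more they were 1.78%, so 0 of 100 lies near that share.

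Most members stood close to the lower limit of the rule. The median member was at 17.4 RPKM in the tetrasporophyte, the quartiles were 13.0 and 30.8 RPKM, and 103 of the 175 (58.9%) lay between 10 and 20 RPKM. Another 56 lay between 20 and 50 RPKM and 11 between 50 and 100 RPKM. On the same reading of a missing entry, the smallest fold over a gametophyte was 58.0 at the median and 33.3 for the lowest member. The other 9631 tetrasporophyte transcripts at 10 RPKM or more had a median of 23.6 RPKM, and 40.1% of them lay between 10 and 20 RPKM. The members together held 1.01% of the summed tetrasporophyte RPKM, against 91.2% for these others.

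**Figure D1:**
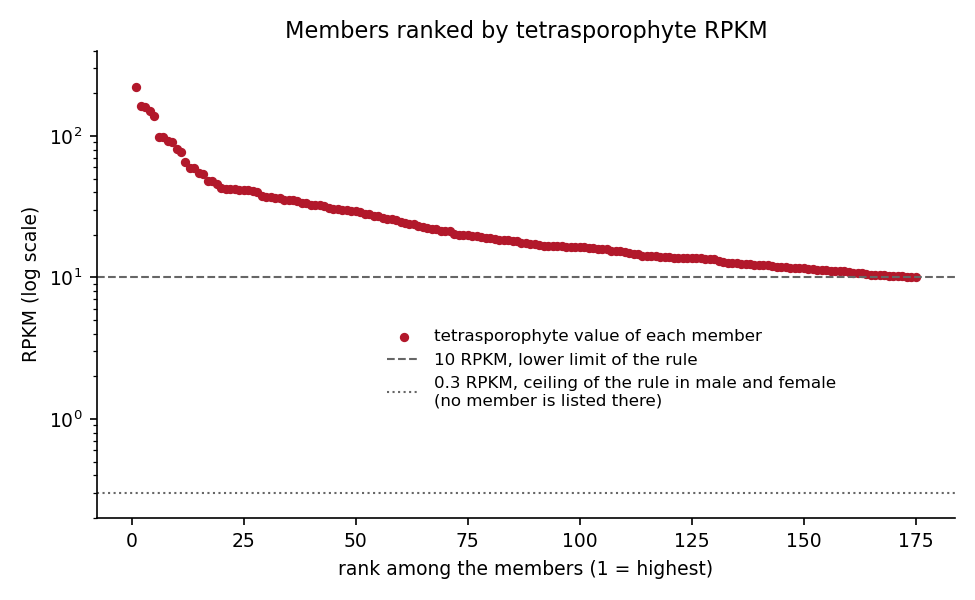
Tetrasporophyte RPKM (log scale) of the 175 members, 1 point each, ranked from highest to lowest, with the 10 RPKM limit (dashed) and the 0.3 RPKM ceiling (dotted) of the rule. The 5 highest members sit between 138.95 and 222.52 RPKM, and the curve flattens towards 10 RPKM, where most members lie.

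The limit at 10 RPKM cut through a continuous range. Just inside it were ISGT_26774 at 10 RPKM, ISGT_15699 at 10.08 RPKM and ISGT_28270 at 10.14 RPKM in the tetrasporophyte. Just outside were ISGT_12563 at 9.99 RPKM, ISGT_5665 at 9.97 RPKM and ISGT_15586 at 9.90 RPKM, with the same absence from the gametophytes. Below the limit, 625 further transcripts listed for the tetrasporophyte alone lay between 1 and 10 RPKM and 5286 below 1 RPKM. The members were thus 2.88% of the 6086 transcripts that have an entry in the tetrasporophyte and in neither gametophyte.

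At the ceiling in the gametophytes, only the transcripts above it have recorded values. Of the 9806 transcripts at 10 RPKM or more in the tetrasporophyte, 175 (1.78%) were members. Another 0 had an entry at or below 0.3 RPKM in both gametophytes. The listing rule leaves room for such an entry only where the higher value is exactly 0.3 RPKM. The higher gametophyte value lay above 0.3 and up to 1 RPKM for 38 transcripts, above 1 and up to 3 RPKM for 79, above 3 and up to 10 RPKM for 784, and above 10 RPKM for 8730. The 175 members thus stood beside 117 transcripts whose higher gametophyte value lay above 0.3 and up to 3 RPKM.

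Nearest to the ceiling was ISGT_3689, whose values were 60.20 RPKM (tetrasporophyte), 0.05 RPKM (male) and 0.31 RPKM (female). For ISGT_41688 the tetrasporophyte value was 17.63 RPKM, the male value 0.31 RPKM and the female value 0.25 RPKM. For ISGT_9886 the tetrasporophyte value was 14.39 RPKM and the male value 0.31 RPKM, and the female was listed at 0. Each was left out by 0.01 RPKM in 1 gametophyte. Among all 38 between 0.3 and 1 RPKM, the male had the higher value in 26 and the female in 12, and their median in the tetrasporophyte was 17.9 RPKM.

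The same rule applied to the other libraries gave 176 male transcripts, 1.81% of the 9748 at 10 RPKM or more there, and 98 female transcripts, 1.12% of 8768. Above 0.3 and up to 1 RPKM in the higher of the other libraries there were 66 male and 16 female transcripts. The median level of these transcripts in their own library was close to that of the members, 16.5 RPKM for the male set and 16.7 RPKM for the female set, with 63.6% and 59.2% between 10 and 20 RPKM. The sets differ in what is recorded elsewhere, which depends on how the listings were made. The same transcripts are listed for both sexes, and all 27832 above 0.3 RPKM in the male have a tetrasporophyte entry. Of the 176 male transcripts, all have values in both other libraries, and 32 were at exactly 0 in both. Of the 98 female transcripts, all have a male value, 6 of them at 0, and all 98 lack a tetrasporophyte entry.

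**Figure D2:**
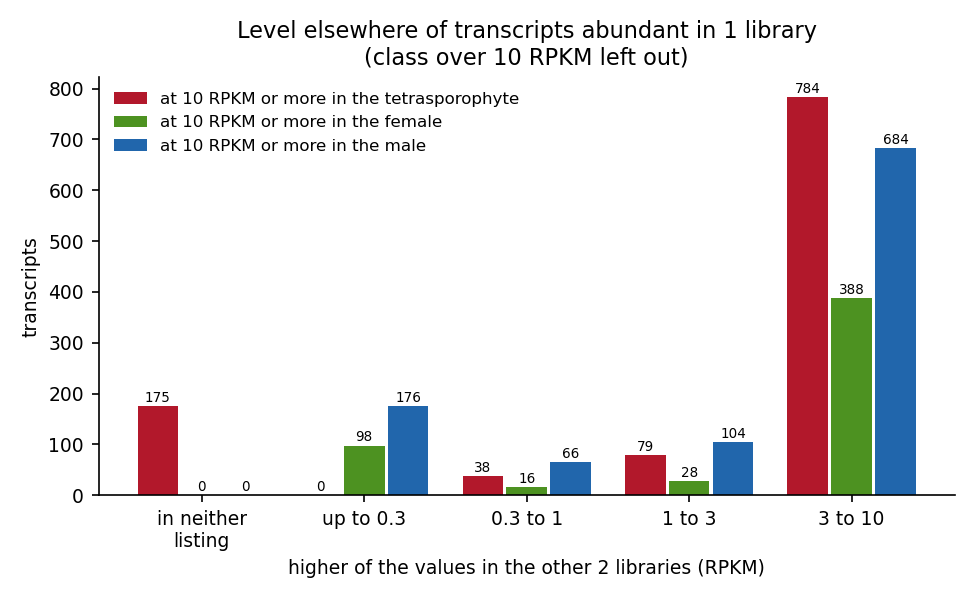
Number of transcripts at 10 RPKM or more in 1 library (red tetrasporophyte, green female, blue male), by the higher of their RPKM values in the other 2 libraries, where a single missing entry is read as at most 0.3 RPKM. The 175 members form the red bar at the left, with 38 and 79 transcripts in the classes from 0.3 to 1 and 1 to 3 RPKM.

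The restricted share was lower among more abundant tetrasporophyte transcripts. At 1 RPKM or more, 806 of 17377 transcripts (4.64%) were restricted to the tetrasporophyte, at 20 RPKM or more 72 of 5842 (1.23%), at 50 RPKM or more 16 of 1839 (0.870%), and at 100 RPKM or more 5 of 679 (0.736%). The female shares were lower at each of the 7 levels computed, from 2.41% at 1 RPKM to 0.278% at 100 RPKM. The male share was above that of the tetrasporophyte at 6 of the 7 levels, from 10.8% at 1 RPKM to 1.33% at 50 RPKM and 2.23% at 100 RPKM (16 transcripts), and below it at 20 RPKM (1.12%). These counts rest on single libraries, and at 100 RPKM the tetrasporophyte and female shares rest on 5 and 2 transcripts.

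**Figure D3:**
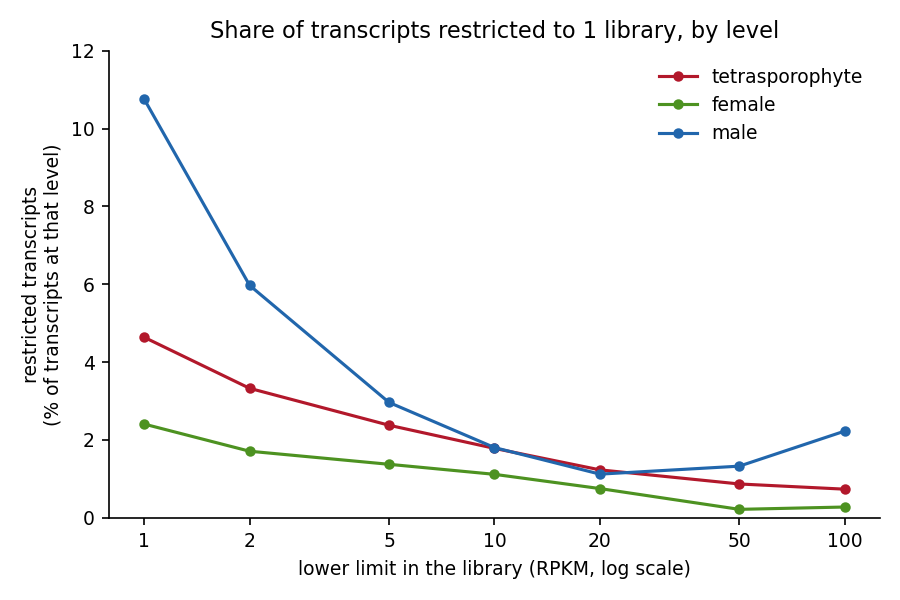
Transcripts restricted to 1 library as a percentage of all transcripts at or above a given RPKM there (log scale on the horizontal axis), for each library. The tetrasporophyte share falls from 4.64% at 1 RPKM to 0.736% at 100 RPKM, and the male share turns upwards above 20 RPKM.

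The transcript number was not used by the rule, and the members were unevenly placed along it. Of 44 blocks of 1000 numbers, 31 held members, and the fullest pair of blocks held 49 of the 175 (28.0%). Between numbers 3001 and 4000 there were 30 members, 3.69% of the 813 transcripts at 10 RPKM or more there. Between 30001 and 31000 there were 19, and these were all 19 transcripts that reached 10 RPKM in that block. No other block held more than 10 members.

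The surroundings of these groups differed. Among numbers 1 to 5000 the median tetrasporophyte entry was 24.4 RPKM, and 82 of 4960 entries (1.65%) were in the tetrasporophyte listing alone. Of those 82, 50 were members (61.0%), with a median of 25.1 RPKM. Among numbers 30001 to 35000 the median entry was 0.44 RPKM, and 2282 of 2920 entries (78.2%) were in the tetrasporophyte listing alone. Of those 2282, 19 were members (0.833%), with a median of 13.8 RPKM.

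In the middle of the numbering, where few transcripts reached 10 RPKM in the tetrasporophyte, members made up a large share of those that did. The members were 10 of 21 transcripts at 10 RPKM or more between 20001 and 25000, 11 of 13 between 25001 and 30000, and 19 of 19 between 30001 and 35000. They were 14.7% of the 156 between 15001 and 20000. Between 1 and 15000 they made up between 0.877% and 2.61% of such transcripts in each block of 5000 numbers, and above 35000 between 0.799% and 0.989%. The restricted sets of the other stages also made up larger shares in the middle of the numbering. Male-restricted transcripts were 51 of the 275 at 10 RPKM or more in the male between 15001 and 20000 (18.5%) and 76 of 105 between 20001 and 25000 (72.4%). Female-restricted transcripts were 71 of the 260 at 10 RPKM or more in the female between 15001 and 20000 (27.3%). No male transcript between 25001 and 35000 and no female transcript between 20001 and 35000 reached 10 RPKM, so neither set could have members there. The highest members lay outside the middle stretch. The highest member between 20001 and 35000 stood at 42.38 RPKM, while the 5 members at 100 RPKM or more were numbered below 15000 or above 39000.

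**Figure D4:**
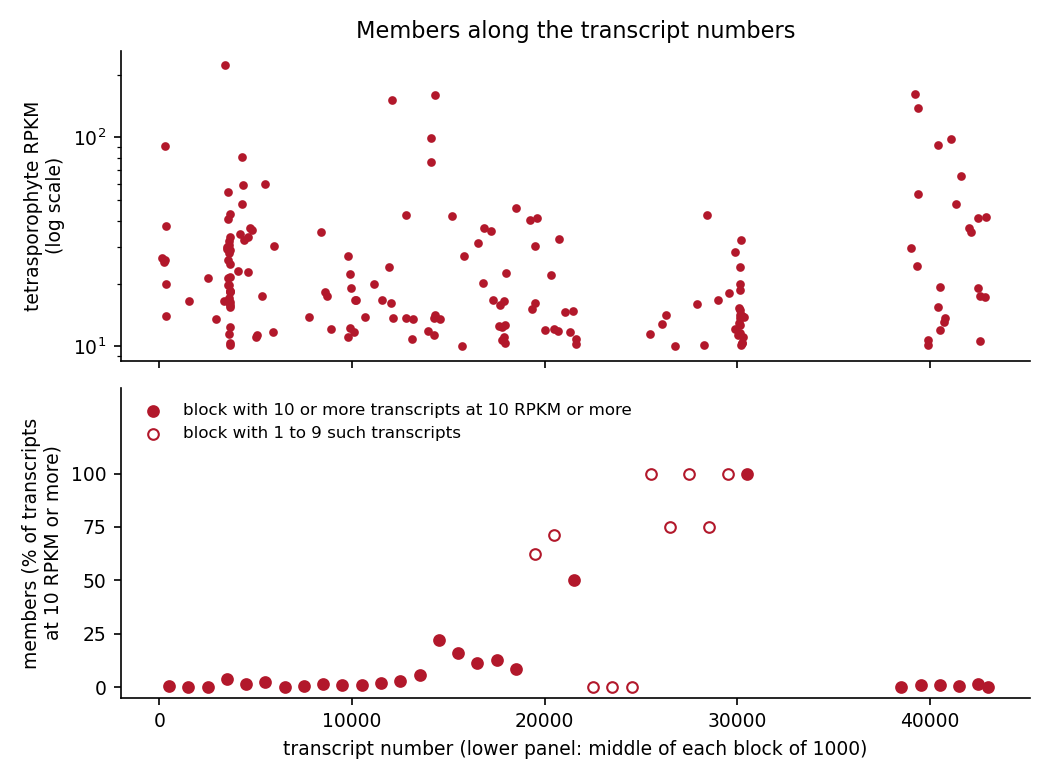
Upper panel, tetrasporophyte RPKM (log scale) of each member against its transcript number. Lower panel, members as a percentage of the transcripts at 10 RPKM or more in the tetrasporophyte in each block of 1000 numbers, with open circles for blocks that hold 1 to 9 such transcripts and no point for blocks with none. Members crowd between 3001 and 4000 and just above 30000. The block from 30001 to 31000 reaches 100%, as do some of the blocks with open circles.

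Some members were numbered next to each other. A consecutive number was shared by 19 of the 175 members (10.9%). Of the 9631 other tetrasporophyte transcripts at 10 RPKM or more, 102 (1.06%) were numbered next to a member. These sets were not matched for place in the numbering, along which the share of members varies. The 19 formed 7 runs, 4 of 2 members, 1 of 3 members and 2 of 4 members. Of the 19, 12 lay in 1 stretch, from 3640 to 3662, and without that stretch 7 members had a consecutive neighbour. Restricted transcripts of the other stages were adjacent as well, with 10 of 98 in the female (10.2%, against 0.346% of other abundant transcripts) and 8 of 176 in the male (4.55%, against 0.209%). How numbers were given to transcripts is not stated, so consecutive numbers are not taken here as one gene.

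One of the 4-member runs held ISGT_3640 at 24.79 RPKM, ISGT_3641 at 18.51 RPKM, ISGT_3642 at 15.50 RPKM and ISGT_3643 at 28.81 RPKM in the tetrasporophyte. The other held ISGT_3656 at 16.34 RPKM, ISGT_3657 at 21.40 RPKM, ISGT_3658 at 18.40 RPKM and ISGT_3659 at 10.33 RPKM. Levels of consecutive members differed by up to several-fold. Of the 12 pairs of consecutive members, ISGT_3657 and ISGT_3658 were closest, with a ratio of 1.16. ISGT_3650 at 42.92 RPKM and ISGT_3651 at 12.37 RPKM were farthest apart, with a ratio of 3.47. Some adjacent members were high: ISGT_14084 stood at 98.92 RPKM beside ISGT_14085 at 76.39 RPKM, and ISGT_39389 at 53.62 RPKM beside ISGT_39390 at 138.95 RPKM.

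Both 4-member runs lay in an unbroken stretch of 23 numbers, 3640 to 3662, each with an entry in the tetrasporophyte and none in the gametophytes. In this stretch 14 transcripts were members and 9 stood below 10 RPKM, from 1.04 to 9.43 RPKM, and the median was 12.4 RPKM. No other unbroken stretch held more than 3 members. The next number, ISGT_3663, was present in every stage, with a tetrasporophyte value of 58.68 RPKM, a male value of 28.01 RPKM and a female value of 30.86 RPKM. Shortly before the stretch, the 14 numbers from 3621 to 3634 shared another pattern. There the female was at 0 in 13 and at 0.02 RPKM in 1, the male ranged from 0.30 to 6.39 RPKM and the tetrasporophyte from 0.14 to 8.84 RPKM, above the male in 13 of the 14. These transcripts are no members, since the tetrasporophyte stayed below 10 RPKM in each of them. In most of them the male was also above the 0.3 RPKM ceiling. The stretch of 14 was chosen for description after its values were seen.

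**Figure D5:**
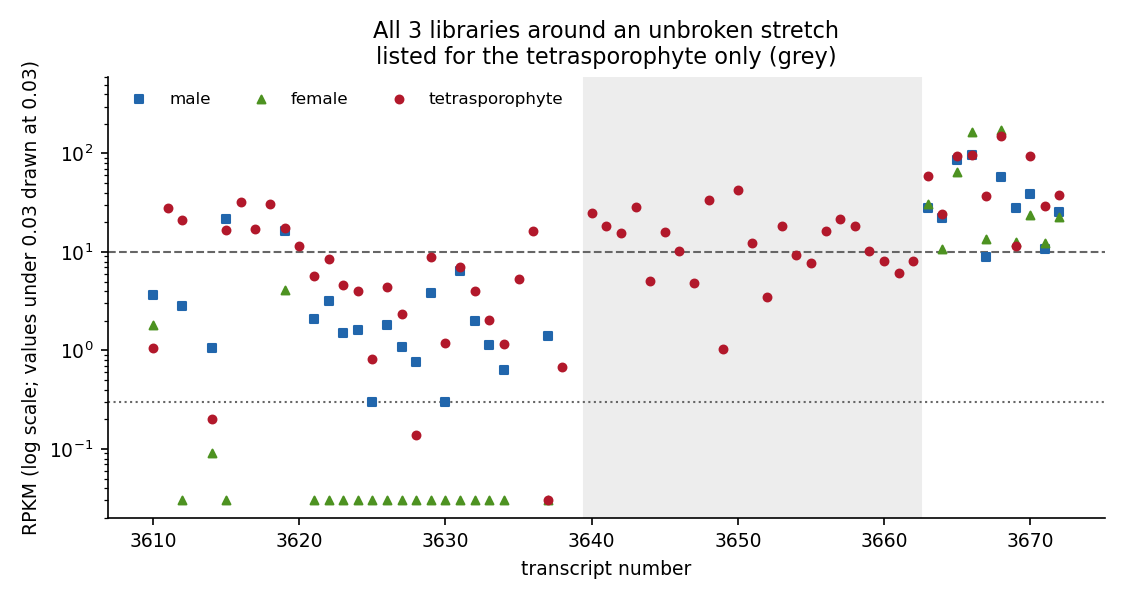
RPKM (log scale, values under 0.03 drawn at 0.03) in the male (squares), female (triangles) and tetrasporophyte (circles) for the numbers around 3640 to 3662, which are shaded; the lines mark 10 RPKM (dashed) and 0.3 RPKM (dotted). The shaded numbers have tetrasporophyte values alone, those before them from 3621 to 3634 have female values at the bottom of the plot, and all 3 libraries have values from 3663 onward.

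In the second group, the 19 members between ISGT_30038 and ISGT_30317 were spread over 280 numbers and ranged from 10.17 to 32.48 RPKM in the tetrasporophyte. Of the 238 numbers in this span with a tetrasporophyte entry, 214 had no gametophyte entry, and 68 of the 238 stood between 1 and 10 RPKM. In the whole block from 30001 to 31000, 97 transcripts had gametophyte entries, of which 62 were at 0 in the female. The highest male value in the block was 1.41 RPKM and the highest female value 0.49 RPKM. Here the members were thus the upper end of a stretch in which gametophyte values were low throughout, whereas between 3001 and 4000, around the first group, 813 transcripts reached 10 RPKM in the tetrasporophyte, 757 in the male and 679 in the female.

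Outside the stretch from 3640 to 3662 and the block from 30001 to 31000 there were 142 members. Of these, 121 (85.2%) had no direct neighbour in the numbering that was listed for the tetrasporophyte alone. Over all 175 members that number was 122 (69.7%), and for 89 (50.9%) both direct neighbours had entries in all 3 libraries. Positions within 2 numbers were counted for each transcript in turn, so a number near several of them counts more than once. Of 700 such positions around members, 154 (22.0%) were in the tetrasporophyte listing alone, 48 of them members themselves. Around the other tetrasporophyte transcripts at 10 RPKM or more it was 645 of 38521 (1.67%). Around tetrasporophyte transcripts below 10 RPKM the share was 17.6%. The 22.0% of the members includes those of the dense stretch and block, so it does not describe the 142 others. Counted in the same way, the female was at 0 in 35 of 444 (7.88%) of the members' neighbours with entries in all 3 libraries. Around the other abundant transcripts it was 0.843%. The members' neighbours with entries in all 3 libraries were also less abundant, with a median of 7.78 RPKM in the tetrasporophyte against 18.5 RPKM. The sets compared were not matched for place in the numbering, along which levels differ. The part of these lower neighbouring levels in the members' absence from the gametophytes was not tested.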

How the data were processed

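RNA of male gametophytes, female gametophytes and tetrasporophytes of Bostrychia moritziana was extracted with TRI Reagent and sequenced as Illumina libraries, per the labels' protocols. The deposited values are RPKM, 1 for each transcript in a library, rounded to 2 decimals; the unit is given per the file headers. How reads were assembled, aligned and counted, and the lengths and totals behind the values, is not given in the sources used here, so no counting interval is given for an RPKM value.

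The 3 listings were joined on the transcript number, and the deposited RPKM were used without further scaling or pseudocount. Fold limits divide the tetrasporophyte value by 0.3 RPKM. Relative depth was fitted jointly to the ratios of transcripts between 0.3 and 3 RPKM in all 3 libraries, in steps of 0.01 on the log2 scale. Neighbours were counted by transcript number. Named transcripts were those at 100 RPKM or more, the 3 nearest to each side of 10 RPKM, the 3 nearest above the gametophyte ceiling, the longest runs of consecutive members, and the consecutive pairs closest and farthest in level; ISGT_14084, ISGT_14085, ISGT_39389 and ISGT_3663 were added after their values were seen. Members, rules and lists were chosen with earlier results of these data known. The rule and the neighbour count were tested on simulated data. Alternatives were other scalings, levels, ceilings, spacings and block sizes, and leaving out either dense group of members. Python 3.11.15, numpy 2.4.6, pandas 2.3.3, scipy 1.17.1 and matplotlib 3.10.9 were used.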

Additional observations from a re-analysis of the deposited data

How the results depend on the processing

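Requiring an entry in all 3 listings left 0 members, by construction, since every member lacks gametophyte entries: the set rests on reading a missing entry as at most 0.3 RPKM. The limit in the tetrasporophyte set the size of the set. At 5 RPKM there were 301 members (2.38% of transcripts at that level, 1.19% of the summed RPKM, median 11.45 RPKM, 46 with a consecutive neighbour). At 20 RPKM there were 72 (1.23%, 0.709%, 34.8 RPKM and 4). Scaling each listed sum to 1000000 multiplies the tetrasporophyte values by 2.05 and so lowers the limit, with 307 members (2.41%, 1.20%, 23.3 and 52). Median-of-ratios scaling gave 172 members, 1.00% of the summed values, a median of 17.3 and 17 with a consecutive neighbour. A ceiling of 1 RPKM gave 213 members (2.17%, 1.21% of the summed RPKM), and a ceiling of 0 gave 175 by construction, since no member has a gametophyte entry.

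Within 2 numbers of each other were 26 members and within 5 numbers 47. Blocks of 5000 numbers held at most 50 members. Alternatives chosen after the data were seen left out each dense group. Without numbers 3640 to 3662 there were 161 members (0.948% of the summed RPKM, median 17.3 RPKM), of which 7 had a consecutive neighbour. Without numbers 30001 to 31000 there were 156 (0.948%, median 18.5 RPKM). No paired analysis was possible because each life stage has 1 library. Depth is known only as a ratio between libraries, so how far below 0.3 RPKM the gametophytes stood is not known.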

Other observations

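Transcripts with a tetrasporophyte entry alone also formed long unbroken stretches that hold no member. Of 37 stretches of 10 or more consecutive numbers, 33 held no transcript at 10 RPKM. The longest ran over 35 numbers, 38676 to 38710, with tetrasporophyte values from 0.31 to 0.90 RPKM and a median of 0.46 RPKM. The next ran over 29 numbers, 38529 to 38557, from 0.31 to 0.88 RPKM. The stretch from 3640 to 3662, the fourth longest, was the one with a median above 10 RPKM among the 10 longest. These stretches were chosen for description after their values were seen.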
